A study of Mus musculus with 37 samples.

Results

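The mammary glands examined here came from mice given 10 cGy of silicon ions (Si), the lower of 2 silicon doses, and were collected 1 week later together with glands of sham-irradiated mice. The samples were chosen by their titles, which gave 3 arrays of 10 cGy Si glands and 3 arrays of sham glands, 6 of the 37 arrays of the study. All animals were female BALB/c mice in which 1 inguinal mammary gland had been cleared and the gland of the opposite side had been left in place, and the intact gland was the one measured. Irradiation or sham treatment took place at 10 weeks of age at Brookhaven National Laboratory. Silicon was delivered at 350 MeV/amu and ionises densely along each track. The glands of week 1 were taken at the irradiation site, whereas those of weeks 4 and 12 were taken after the animals had travelled back to their home facility. Groups set beside these arrays were 10 cGy Si at weeks 4 and 12 (3 arrays each), 30 cGy Si at week 1 (3 arrays), 100 cGy of sparsely ionising gamma rays at week 1 (3 arrays), and sham at weeks 4 and 12 (4 and 3 arrays). Nothing in the labels says whether replicates came from different animals, so p-values rest on variation among the samples as labelled, part of which may be technical.

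Total RNA of the whole gland was hybridised to Affymetrix arrays, and the deposited values are log2 levels, on which a step of 1 is a 2-fold difference. A gene was read from 1 probe set, and 13174 genes with a mean level above 4.04 were tested. A gene was called at a Benjamini-Hochberg adjusted p under 0.05 from limma, fitted to all 37 arrays. Each SE comes from that fit and uses the spread of a gene within all 12 groups, not within the 6 arrays alone. The n beside a SE counts the arrays behind each mean. The intact inguinal gland is mostly fat, with ducts, stroma, vessels and often an embedded lymph node, so a level describes a mix of cells. Adipocyte and epithelial markers were present in all 6 arrays: Adipoq, the adipocyte hormone adiponectin, lay between 11.24 and 11.65, and Krt8, a keratin of luminal cells, between 9.65 and 11.42. Ucp1 of brown fat and S100a8 of neutrophils were under the level needed for testing, whereas other markers of these cells passed it. Of brown fat, Cox8b lay between 8.45 and 9.45 and Cidea between 4.19 and 5.70. S100a9 of neutrophils lay between 3.43 and 4.49.

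Molecular chaperones bind unfolded proteins and keep them from clumping. The heat shock factor Hsf1 raises cytosolic chaperones when proteins misfold, and a separate set of sensors in the endoplasmic reticulum does so for the chaperones of that compartment. Glucocorticoids, the adrenal hormones of systemic stress, act through a nuclear receptor that Hsp90 and its partner proteins hold ready, and they are known to induce Zbtb16, Tsc22d3 and Fkbp5 in many tissues. DNA damage is known to act through p53 on Cdkn1a, Mdm2 and Ccng1.

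After 10 cGy Si, 11 genes were called higher, 0.0835% of the genes tested, and 0 were called lower. Of these, 4 encode cytosolic chaperones (Hsph1, Hspb1, Hspa4l, Hsp90aa1) and 2 are genes that glucocorticoids induce (Zbtb16, Tsc22d3). The others are the collagen-modifying enzyme P4ha1, the secreted matrix protein Tinagl1, the adapter Pid1, the scaffold Ranbp9 and the nuclear protein Banp. Their folds ran from 1.47 for Ranbp9 to 3.31 for Zbtb16, and in all 11 every 10 cGy Si array lay above every sham array. Over all genes tested, 7.92% had all 10 cGy Si arrays above all sham arrays and 3.86% had them all below. An unadjusted p under 0.05 was reached by 471 genes that were higher and 241 that were lower, 3.58% and 1.83% of the genes tested. The median difference over all genes was 0.01 and 52.2% of genes were above 0.

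The count of called genes rested on few arrays. It was 1 without 10 cGy Si replicate 2, 5 without 10 cGy Si replicate 3 and 20 without 10 cGy Si replicate 1. Dropping a sham array gave 6 called genes for replicate 1, 3 for replicate 2 and 9 for replicate 3. A fit to the 6 arrays alone called 0 genes (731 below 0.05 in the unadjusted limma p), and a fit to the arrays of week 1 called 1. With weights that let noisier arrays count less, 88 genes were called, 69 higher and 19 lower, among them all 11.

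**Figure D1:**
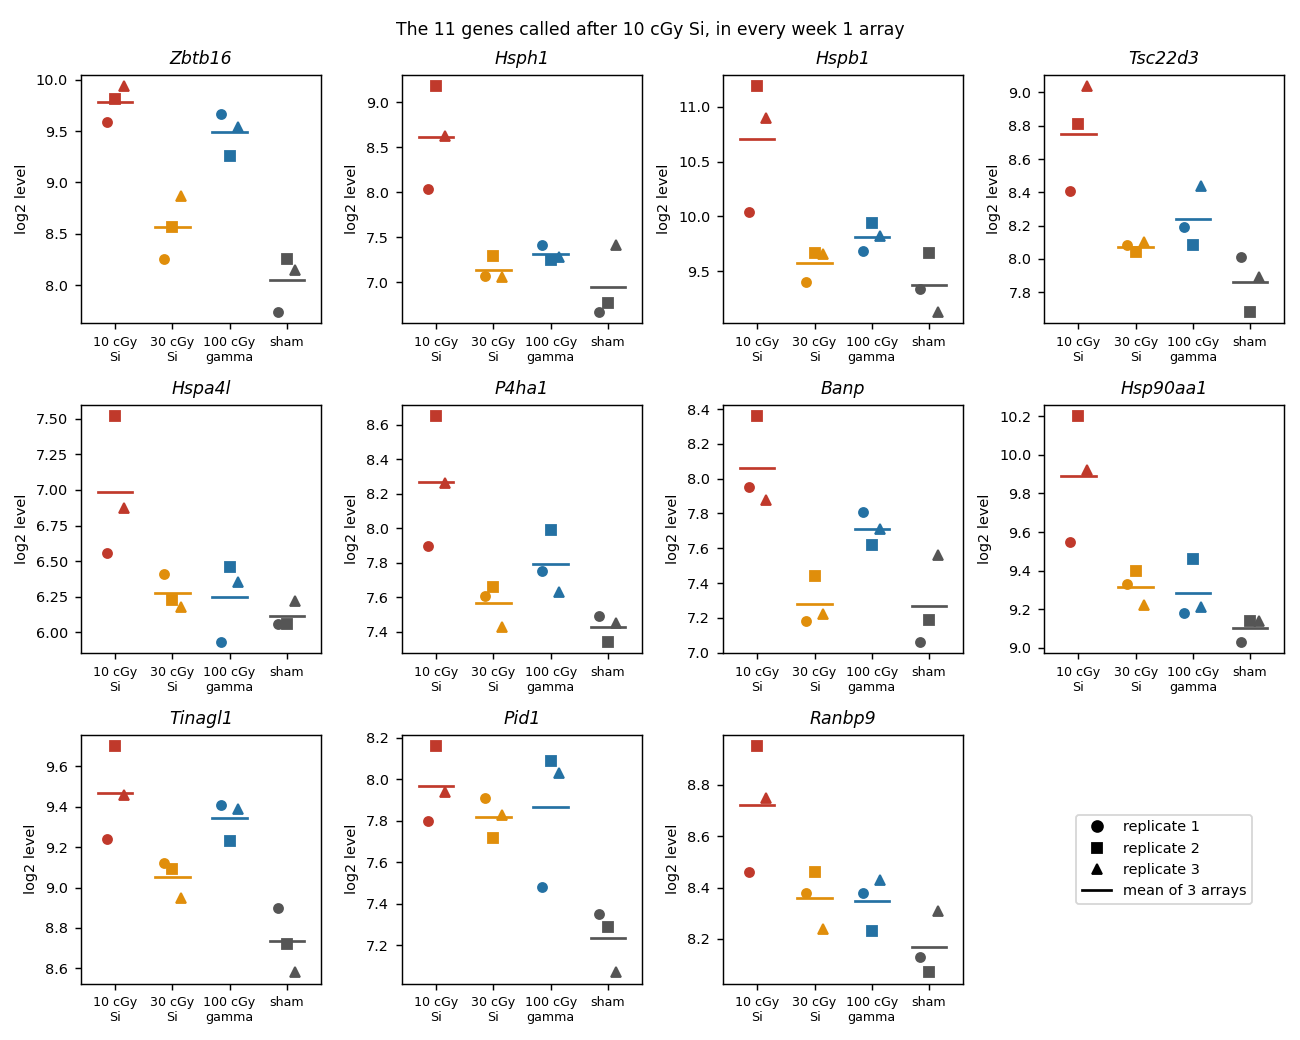
Levels of the 11 called genes in the 12 arrays of week 1, 1 panel a gene, with the deposited log2 level on the vertical axis (each axis has its own range and does not start at 0) and the treatments 10 cGy Si, 30 cGy Si, 100 cGy gamma and sham side by side. Symbols are replicates and bars are means of 3 arrays. In every panel the 10 cGy Si arrays sit above the sham arrays, as in Zbtb16 with 9.59 to 9.94 against 7.74 to 8.26.

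Hsph1, an Hsp110-type protein that recharges Hsp70 by exchanging its nucleotide, had levels of 8.04, 9.18 and 8.62 in 10 cGy Si glands, against 6.67, 6.77 and 7.41 in sham glands. The groups did not overlap, although sham replicate 3 came within 1 log2 unit of 10 cGy Si replicate 1. The difference was 1.66 ± 0.252 on the log2 scale (SE, n = 3 each), a 3.16-fold higher level with a limma adjusted p of 0.00228. Without 10 cGy Si replicate 2 it was 1.38 and was not called (adjusted p = 0.0839).

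Hspb1, the small heat shock protein also known as Hsp27, which holds partly unfolded proteins in solution, had the smallest adjusted p of all genes. Its levels were 10.04, 11.19 and 10.90 in 10 cGy Si glands, against 9.34, 9.67 and 9.13 in sham glands. Replicate 1 of the 10 cGy Si group was clearly the lowest of its group but lay above every sham gland. The SD was 0.595 over the 10 cGy Si arrays and 0.272 over the sham arrays. Over the 30 cGy Si and gamma arrays of week 1 it was 0.154 and 0.128, and the SE uses all groups. The difference was 1.33 ± 0.188 (SE, n = 3 each), or 2.51-fold, with a limma adjusted p of 0.0013. It was called with any of the 6 arrays left out, at differences of 1.09 to 1.66. A second probe set of Hspb1 differed by 1.34, while the remaining one, whose mean level of 3.38 was under the level needed for testing, differed by -0.08.

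The start regions of both genes are shown because they hold the core of the heat shock element, the site that Hsf1 is known to bind. The sequences are those of RefSeq, build GRCm38.p6, from 250 bases before to 50 bases after the annotated start, given 5′ to 3′ on the strand of the gene. Hspb1 lies at chr5:135887669-135887968 on the plus strand and Hsph1 at chr5:149636287-149636586 on the minus strand. Capitals mark matches to GAANNTTC, which reads the same on both strands.
Hspb1: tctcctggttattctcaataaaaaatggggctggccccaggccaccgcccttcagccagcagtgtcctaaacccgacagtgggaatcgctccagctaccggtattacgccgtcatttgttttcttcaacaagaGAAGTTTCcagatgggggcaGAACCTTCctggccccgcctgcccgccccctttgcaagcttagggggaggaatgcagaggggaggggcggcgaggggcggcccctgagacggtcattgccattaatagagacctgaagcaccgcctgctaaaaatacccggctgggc
Hsph1: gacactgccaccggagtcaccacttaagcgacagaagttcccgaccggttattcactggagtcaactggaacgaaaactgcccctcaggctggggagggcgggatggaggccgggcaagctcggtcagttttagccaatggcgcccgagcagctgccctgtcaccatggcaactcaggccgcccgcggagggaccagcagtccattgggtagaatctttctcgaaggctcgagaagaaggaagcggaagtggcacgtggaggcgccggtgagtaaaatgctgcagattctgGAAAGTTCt
In Hspb1 the matches GAAGTTTC and GAACCTTC began at -117 and -97 relative to the start. In Hsph1 the match GAAAGTTC began at 42 on the same count, and the second annotated start of that gene also held the motif. Counting a gene when any of its start regions held the motif, it was present in 9.04% of the 27025 genes of the table and in 10 of the 29 members of the cytosolic chaperone list that the table covered. A match describes letters in a window and not binding. Of the other called genes, Tsc22d3, Hspa4l, P4ha1, Tinagl1, Pid1 and Ranbp9 had no match to it in their windows. Zbtb16, Banp and Hsp90aa1 had no start region among the sequences used and were not searched.

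Hsp90aa1, the stress-inducible cytosolic Hsp90, had levels of 9.55, 10.20 and 9.92 in 10 cGy Si glands, against 9.03, 9.14 and 9.14 in sham glands. All 3 irradiated glands were higher, and their spread was wider than that of the sham glands. The difference was 0.79 ± 0.15 (SE, n = 3 each), or 1.72-fold (limma adjusted p = 0.0181). All 3 of its probe sets agreed, with differences of 0.79, 0.78 and 0.79. The call held without 10 cGy Si replicate 1 and was lost without any 1 of the other 5 arrays, with adjusted p-values of 0.0806 to 0.35.

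Hspa4l, a second Hsp110-type protein, was at 6.56, 7.52 and 6.87 in 10 cGy Si glands, against 6.06, 6.06 and 6.22 in sham glands. Replicate 2 of the 10 cGy Si group stood well above the other arrays. The difference was 0.87 ± 0.159 (SE, n = 3 each), or 1.83-fold (limma adjusted p = 0.0113). The call was lost on leaving out 10 cGy Si replicate 2 (0.605, adjusted p = 0.243), and on leaving out either sham replicate 1 or 2 (adjusted p = 0.0907 and 0.112).

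The wider list of cytosolic chaperones and their partners had 32 members above the level for testing, out of 39 entries. The 4 called members make up 12.5% of the 32, beside 0.0835% of all genes tested. The list was chosen with earlier results of these data known. Differences above 0 were seen in 27 members, and the median was 0.29, beside 0.01 for all genes. In 16 members, 50% beside 7.92% of all genes, all 10 cGy Si arrays lay above all sham arrays. In 1 member all lay below, 3.12% beside 3.86% of all genes. The count of called members was 1 without 10 cGy Si replicate 2 and 2 without sham replicate 1 or sham replicate 2.

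Several members that act together with Hsp70 and Hsp90 had values of the same sign without a call. Stip1, which passes client proteins between Hsp70 and Hsp90, was at 8.85, 9.37 and 8.97 in 10 cGy Si glands, against 8.58, 8.43 and 8.51 in sham glands (difference 0.55 ± 0.125, SE, n = 3 each, limma adjusted p = 0.096). Chordc1, an Hsp90 partner, was at 8.07, 8.89 and 8.62 against 7.63, 7.83 and 7.95 in sham glands (0.72 ± 0.167, limma adjusted p = 0.108). In both genes the irradiated arrays were all above the sham arrays. Dnajb1, an Hsp40 that stimulates Hsp70, differed by 0.59 ± 0.155 (limma adjusted p = 0.238), and Cacybp by 0.63 ± 0.223 (limma adjusted p = 0.582).

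Chaperones of the endoplasmic reticulum gave no call among 21 members tested. Of these, 18 had differences above 0, with a median of 0.26. In 8, 38.1% beside 7.92% of all genes, all 10 cGy Si arrays lay above all sham arrays. Hspa5, the main Hsp70 of that compartment (BiP), was at 10.20, 10.64 and 10.44 in 10 cGy Si glands, against 9.85, 9.82 and 9.75 in sham glands. These arrays did not overlap, and the difference was 0.62 ± 0.171 (SE, n = 3 each, limma adjusted p = 0.27). Creld2 differed by 0.57 ± 0.156 (limma adjusted p = 0.265), Dnajb9, an Hsp40 of the endoplasmic reticulum, by 0.58 ± 0.167 (limma adjusted p = 0.315), and Sdf2l1 by 0.86 ± 0.336 (limma adjusted p = 0.757). The endoplasmic reticulum stress element, a composite site to which the factors Atf6 and NF-Y bind, was found on the gene's strand or its complement in the start regions of 7 of the 18 members covered and in 0.137% of all genes.

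Other branches of protein quality control also had no called member. Of 14 genes of endoplasmic reticulum associated degradation, 11 were above 0 with a median of 0.17 and 0 were called, the largest being Herpud1, a membrane organiser of that pathway, at 0.46 ± 0.118 (limma adjusted p = 0.238). Among 14 members of the chaperonin complex and the mitochondrial chaperones, 12 were above 0 with a median of 0.14 and 0 were called. Proteasome subunits had a median of 0.06 over 30 members, and the unfolded protein sensors and integrated stress response genes a median of 0.09 over 20 members, with 0 called in either list.

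**Figure D2:**
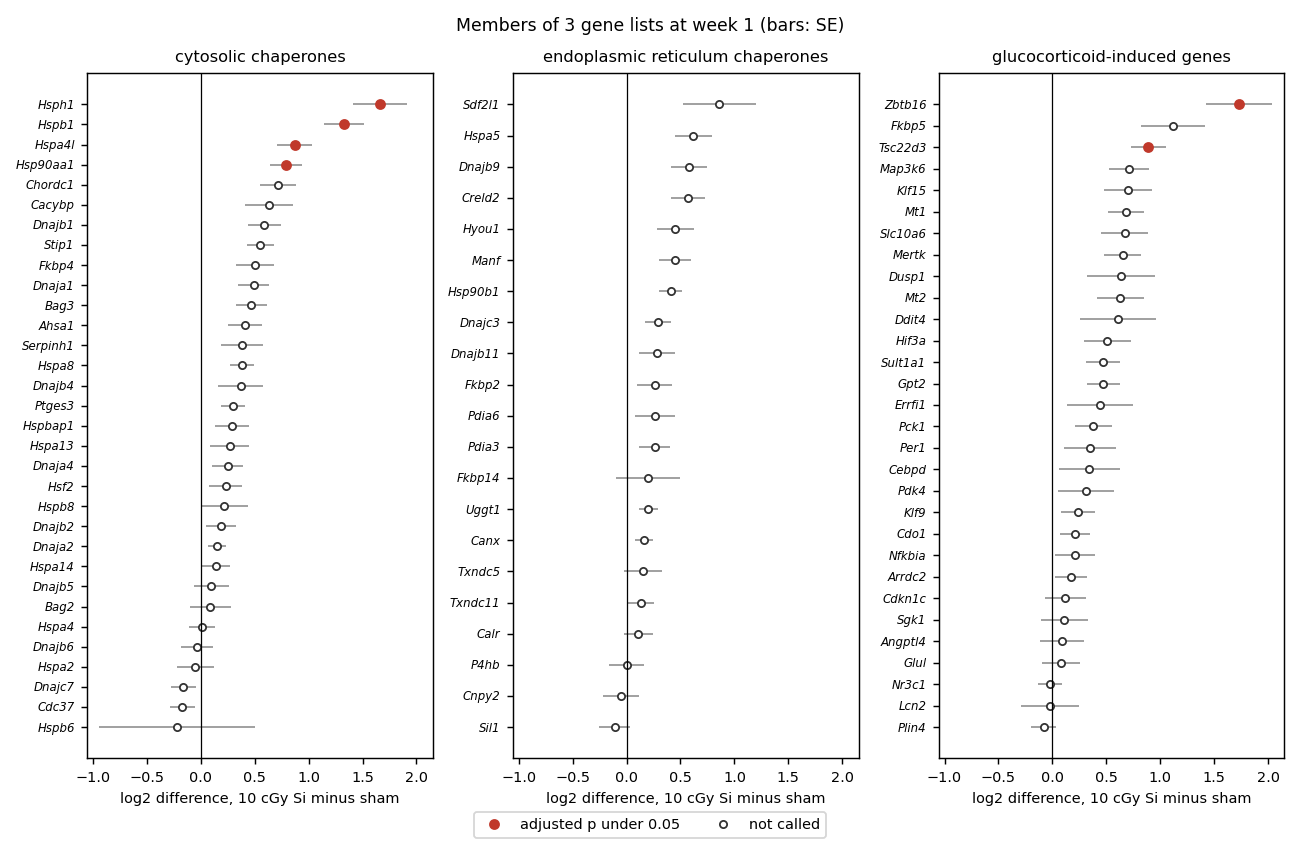
Differences of every tested member of 3 gene lists at week 1, with the log2 difference of 10 cGy Si minus sham on the horizontal axis. Points are limma estimates, bars are SE, and filled points are called genes. Of the 32 cytosolic chaperones 27 lie above 0, of the 21 chaperones of the endoplasmic reticulum 18, and of the 30 glucocorticoid-induced genes 27.

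Zbtb16, a zinc finger repressor also known as PLZF, had the largest difference of the called genes. It was at 9.59, 9.81 and 9.94 in 10 cGy Si glands, against 7.74, 8.26 and 8.15 in sham glands. The lowest irradiated array lay more than 1 log2 unit above the highest sham array. The difference was 1.73 ± 0.304 (SE, n = 3 each), or 3.31-fold (limma adjusted p = 0.0106). It stayed between 1.58 and 1.84 with any 1 array left out. The call was lost without sham replicate 1 (adjusted p = 0.0941), without 10 cGy Si replicate 2 (0.134) and without 10 cGy Si replicate 3 (0.0975).

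Tsc22d3, known as the glucocorticoid-induced leucine zipper, was at 8.41, 8.81 and 9.04 in 10 cGy Si glands, against 8.01, 7.68 and 7.89 in sham glands. Here 10 cGy Si replicate 3 was the highest array and replicate 1 the closest to the sham glands. The difference was 0.89 ± 0.161 (SE, n = 3 each), or 1.85-fold (limma adjusted p = 0.0113). The call was lost without 10 cGy Si replicate 2 (adjusted p = 0.134), 10 cGy Si replicate 3 (0.169) or sham replicate 2 (0.144).

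Fkbp5, an Hsp90 partner that lowers the hormone affinity of the glucocorticoid receptor, was not called. Its levels were 7.87, 8.32 and 8.13 in 10 cGy Si glands, against 6.38, 7.27 and 7.29 in sham glands, with sham replicate 1 far below the rest (difference 1.12 ± 0.295, SE, n = 3 each, limma adjusted p = 0.238). The list of glucocorticoid-induced genes had 2 called members of 30 tested, or 6.67%, beside 0.0835% of all genes tested. It had 27 differences above 0 with a median of 0.41, and was chosen with earlier results of these data known. In 12 members, 40% beside 7.92% of all genes, all 10 cGy Si arrays were above all sham arrays. In 0 members were they all below, beside 3.86% of all genes. The count of called members was 0 without 10 cGy Si replicate 2 or replicate 3, and 1 without sham replicate 2. Map3k6, Klf15 and Mt1, a metallothionein, had differences of 0.71 ± 0.185, 0.70 ± 0.221 and 0.68 ± 0.169 (limma adjusted p = 0.238, 0.418 and 0.205). The receptor's motif ACANNNTGT lay in the start regions of 6 of the 24 members covered and in 7.9% of all genes, and in none of the 3 start regions of Tsc22d3. Zbtb16 was not covered.

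The circadian clock, whose genes glucocorticoids also influence, had 18 members tested, 0 called and a median of 0.17. Differences were above 0 in 11 members and below 0 in 7. Ciart had the largest, 0.99, with overlap between 5.40, 5.86 and 7.63 in 10 cGy Si glands and 5.35, 4.66 and 5.91 in sham glands. Per2, a repressor of the clock, was at 7.04, 7.67 and 7.67 in 10 cGy Si glands, against 6.77, 6.85 and 6.83 in sham glands (difference 0.64 ± 0.277, SE, n = 3 each, limma adjusted p = 0.843). The hour of tissue collection was not given in the sources used here. Immediate early genes had 13 of 24 members above 0 and a median of 0.10. The largest of them, Klf4, a transcription factor, differed by 0.65 ± 0.163 (limma adjusted p = 0.205).

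P4ha1, the catalytic subunit of the prolyl hydroxylase that stabilises the collagen triple helix, was at 7.90, 8.65 and 8.26 in 10 cGy Si glands, against 7.49, 7.34 and 7.45 in sham glands. The sham arrays lay close together and the 10 cGy Si arrays were spread above them. The difference was 0.84 ± 0.139 (SE, n = 3 each), or 1.79-fold (limma adjusted p = 0.0067). It was not called without 10 cGy Si replicate 2 (0.649, adjusted p = 0.134) or sham replicate 2 (adjusted p = 0.0754). It was the 1 called member of 13 collagen folding and crosslinking enzymes (7.69%, beside 0.0835% of all genes), whose median was 0.06. The 17 collagen genes had a median of -0.07 with 0 called.

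Tinagl1, a secreted protein of the extracellular matrix, was at 9.24, 9.70 and 9.46 in 10 cGy Si glands, against 8.90, 8.72 and 8.58 in sham glands (difference 0.73 ± 0.128, SE, n = 3 each, 1.66-fold, limma adjusted p = 0.0106). Pid1, an adapter that lowers the response of fat cells to insulin, was at 7.80, 8.16 and 7.94 in 10 cGy Si glands, against 7.35, 7.29 and 7.07 in sham glands (0.73 ± 0.147, 1.66-fold, limma adjusted p = 0.0371). Neither gene's groups overlapped. Each had few calls when 1 array was left out: Tinagl1 stayed called without 10 cGy Si replicate 1 and without sham replicate 1, and Pid1 only without 10 cGy Si replicate 1. Over the other 5 arrays the adjusted p of Pid1 ran from 0.0907 to 0.436.

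Ranbp9, a scaffold protein of a ubiquitin ligase complex, was at 8.46, 8.95 and 8.75 in 10 cGy Si glands, against 8.13, 8.07 and 8.31 in sham glands (difference 0.55 ± 0.102, SE, n = 3 each, 1.47-fold, limma adjusted p = 0.0135). Banp, a nuclear protein that binds DNA at CpG-rich promoters, was at 7.95, 8.36 and 7.88 in 10 cGy Si glands, against 7.06, 7.19 and 7.56 in sham glands (0.79 ± 0.144, 1.73-fold, limma adjusted p = 0.0113). In both genes the highest sham array was replicate 3, still below every irradiated array. Banp was not called without 10 cGy Si replicate 2, sham replicate 1 or sham replicate 2 (adjusted p = 0.245, 0.128 and 0.112). Ranbp9 stayed called only without 10 cGy Si replicate 1 or sham replicate 3.

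**Figure D3:**
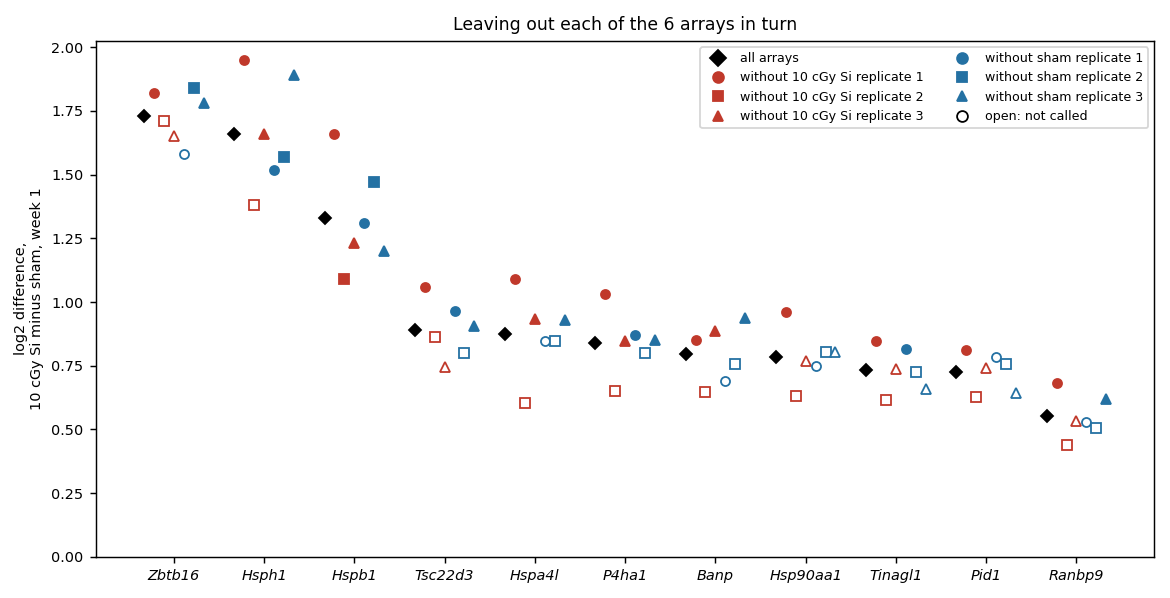
Log2 difference of 10 cGy Si minus sham at week 1 for the 11 genes, with all arrays (black) and with each of the 6 arrays left out in turn. Filled symbols are called (adjusted p under 0.05) and open symbols are not. All differences stay above 0, and Hspb1 is the gene that stays called throughout, between 1.09 and 1.66.

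Among the 3 irradiated arrays, replicate 2 was the highest in 9 of the 11 called genes and replicate 1 the lowest in 10. The lists moved in the same way, with mean levels of the 32 cytosolic chaperones of 7.90, 8.25 and 8.14 in 10 cGy Si glands, against 7.64, 7.75 and 7.79 in sham glands. For the 30 glucocorticoid-induced genes the means were 8.79, 9.16 and 9.08 in 10 cGy Si glands, against 8.77, 8.58 and 8.33 in sham glands. The lowest irradiated array was thus close to the highest sham array in the second list.

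No gene fell. The 5 genes with the smallest unadjusted p among those lower in 10 cGy Si glands were Bcl9, Zbtb7c, Fam136a, Bahcc1 and Baz2a. Bcl9, a coactivator of beta-catenin in Wnt signalling, was at 7.50, 7.46 and 7.15 in 10 cGy Si glands, against 7.83, 7.88 and 7.78 in sham glands (difference -0.46 ± 0.0986, SE, n = 3 each, limma adjusted p = 0.0689). Zbtb7c, a zinc finger transcription factor, was at 5.44, 5.60 and 5.29 in 10 cGy Si glands, against 6.18, 6.36 and 6.11 in sham glands (-0.78 ± 0.171, limma adjusted p = 0.083). Neither gene's groups overlapped, but neither passed the test. Fam136a differed by -0.84 ± 0.221, Bahcc1 by -0.55 ± 0.146, and Baz2a, a subunit of a nucleolar chromatin remodeller, by -0.35 ± 0.0978 (limma adjusted p = 0.238, 0.244 and 0.277).

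Targets of p53 had 26 members tested, 0 called, 16 above 0 and a median of 0.05. Cdkn1a, the cell cycle inhibitor p21, was at 9.13, 9.73 and 9.38 in 10 cGy Si glands, against 8.48, 8.30 and 8.19 in sham glands. All irradiated arrays were higher, and the difference of 1.09 ± 0.311 (SE, n = 3 each) had a limma adjusted p of 0.313, with a SE set by the spread of this gene over all groups. Ccng1 differed by 0.27 ± 0.15, Eda2r, a receptor of the tumour necrosis factor family, by 0.27 ± 0.213, and Mdm2, which degrades p53, by 0.08 ± 0.11 (limma adjusted p = 0.959, 0.976 and 0.999). Phlda3, an inhibitor of Akt, was lower at 8.74, 8.80 and 8.72 in 10 cGy Si glands, against 9.20, 9.13 and 9.22 in sham glands (-0.43 ± 0.295, limma adjusted p = 0.97). The 22 DNA break repair genes had a median of 0.02 and 0 calls.

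Metabolic and growth lists had no called member. The 31 subunits of oxidative phosphorylation had 29 differences above 0 and a median of 0.19. The 23 genes of fatty acid synthesis had 19 above 0 and a median of 0.22. In 8 of them, 34.8% beside 7.92% of all genes, all 10 cGy Si arrays were above all sham arrays. Acaca, which makes malonyl-CoA, was at 10.53, 10.88 and 10.18 in 10 cGy Si glands, against 9.35, 9.79 and 9.48 in sham glands (difference 0.99 ± 0.449, SE, n = 3 each, limma adjusted p = 0.871). Cytosolic ribosomal proteins had 2 of 29 members above 0 and a median of -0.17, and cell cycle and mitosis genes 4 of 21 with a median of -0.20. The 26 antioxidant and glutathione enzymes had a median of 0.10, with the glutathione transferase Gsta3 at 8.88, 8.99 and 8.72 in 10 cGy Si glands, against 8.0, 8.04 and 8.35 in sham glands (0.73 ± 0.195, limma adjusted p = 0.238). The 22 splicing and RNA-binding proteins had 10 differences above 0 and a median of -0.01. The largest of them in size, Cirbp, the cold-inducible RNA-binding protein, was at 7.64, 7.47 and 7.32 in 10 cGy Si glands, against 8.40, 8.04 and 8.07 in sham glands (-0.69 ± 0.208, limma adjusted p = 0.364).

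Markers of lymph node and muscle varied widely between glands of the same group. B cell genes had mean levels of 8.11, 5.03 and 7.71 in 10 cGy Si glands, against 6.65, 5.35 and 8.65 in sham glands, and T and NK cell genes 7.33, 4.91 and 6.64 against 5.98, 4.98 and 7.78. Lymph node stromal genes were at 8.59, 5.77 and 8.03 in 10 cGy Si glands, against 7.35, 6.27 and 8.76 in sham glands. The groups overlapped in each of these lists, and replicate 2 was the lowest on both sides. Skeletal muscle genes were at 5.09, 5.13 and 9.35 in 10 cGy Si glands, against 6.98, 5.98 and 8.54 in sham glands, a median difference of -0.77 with 0 of 25 called. Luminal epithelial genes were at 7.86, 7.97 and 7.84 in 10 cGy Si glands, against 8.47, 8.64 and 7.41 in sham glands, with 4 of 22 differences above 0, a median of -0.30 and 0 called. White adipocyte genes were at 11.08, 11.41 and 11.18 in 10 cGy Si glands, against 11.12, 11.08 and 11.08 in sham glands. In whole tissue, fewer cells of a type and less RNA per cell cannot be told apart.

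With the mean levels of lymphocyte, muscle, epithelial and brown adipocyte genes as covariates, 13 genes were called, and 10 of the 11 were among them, the exception being Pid1 (0.668, adjusted p = 0.0859). The called chaperones differed by 1.60 for Hsph1, 1.31 for Hspb1, 0.854 for Hspa4l and 0.797 for Hsp90aa1 in that fit. Macrophage genes were at 8.09, 7.43 and 7.91 in 10 cGy Si glands, against 7.70, 7.34 and 7.6 in sham glands, with 17 of 20 differences above 0, a median of 0.27 and 0 called. Their part in the result was not tested.

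**Figure D4:**
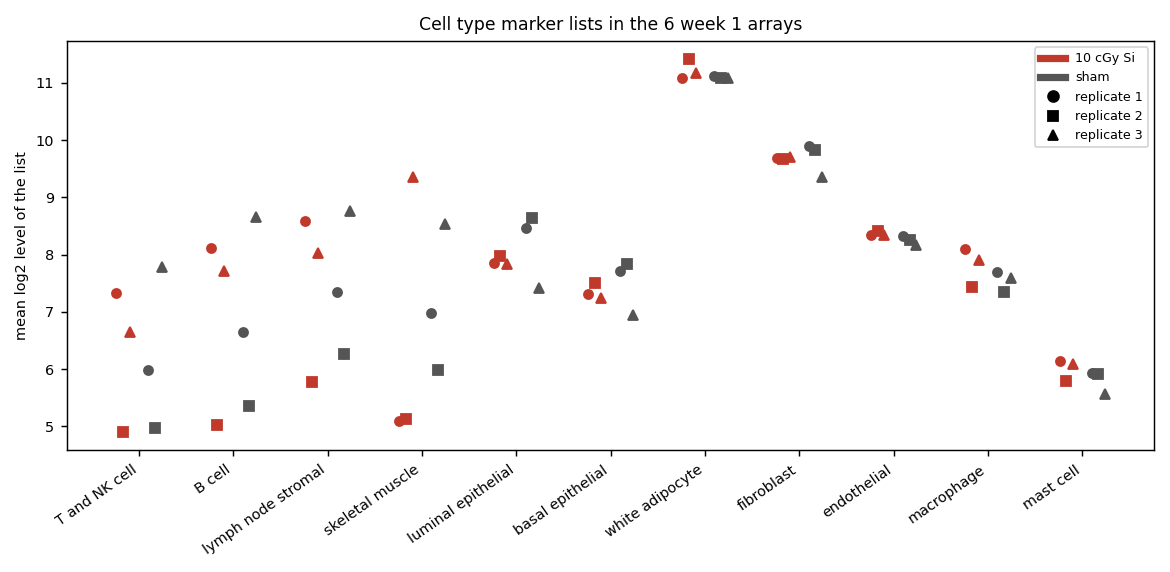
Mean log2 level of 11 cell type marker lists in the 6 arrays of week 1, with 10 cGy Si (red) left of sham (grey) in each list and a symbol for each replicate. The vertical axis does not start at 0. Lymphocyte, lymph node and muscle lists differ by several log2 units between glands of 1 group, while white adipocyte, fibroblast and endothelial lists stay close together.

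At weeks 4 and 12, 10 cGy Si glands were set against sham glands of the same week. No gene was called at either week (0% of 13174), while the unadjusted limma p was below 0.05 for 418 genes at week 4 and 619 at week 12, 3.17% and 4.7%. Of the 11 genes, Zbtb16 was at 9.23, 9.42 and 9.51 in 10 cGy Si glands of week 4, against 9.63, 8.05, 8.83 and 8.48 in sham glands, and the difference was 0.64 ± 0.284 (SE). Its sham level thus varied, and sham replicate 1 of week 4 lay above all 3 irradiated arrays. At week 12 it was at 7.75, 7.98 and 7.76 in 10 cGy Si glands, against 7.96, 7.99 and 8.18 in sham glands, a difference of -0.21 ± 0.304. Hspb1 differed by 0.21 ± 0.176 at week 4 and -0.02 ± 0.188 at week 12, and Hsph1 by 0.23 ± 0.236 and 0.07 ± 0.252. Hspa4l, P4ha1, Banp, Hsp90aa1, Tinagl1, Pid1 and Ranbp9 lay between -0.11 and 0.25 at both later weeks. The median of the cytosolic chaperone list was 0.04 at week 4 and 0.11 at week 12, and that of the glucocorticoid-induced list 0.22 and -0.28.

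The difference between weeks was tested by itself as an interaction. For week 1 minus week 12, 1 gene was called (0.00759% of those tested): Tsc22d3, with an effect 1.59 ± 0.227 higher at week 1 (limma adjusted p = 0.00157). Its levels at week 12 were 7.02, 7.17 and 7.33 in 10 cGy Si glands, against 7.77, 8.08 and 7.78 in sham glands, so every 10 cGy Si array lay below every sham array at week 12 and above at week 1. At week 4 they were 7.97, 8.56 and 8.68 in 10 cGy Si glands, against 8.20, 7.88, 8.06 and 7.78 in sham glands, with overlap. The week 12 difference alone was -0.70 ± 0.161 (limma adjusted p = 0.507). Tsc22d3 stayed called in this interaction with any of the 12 arrays left out, where the number of called genes ran from 1 to 10, the highest being without 10 cGy Si replicate 1 of week 1 and the next, 2, without sham replicate 3 of week 1. It was not the gene called when only the 4 groups of the contrast were fitted.

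For week 1 minus week 4, 0 genes were called, and the unadjusted limma p was below 0.05 for 508 (3.86%). The 11 genes were chosen on their week 1 values, which enter these differences, so they are given as values. Hsph1 differed by 1.43 with a 95% interval of 0.73 to 2.14, Hspb1 by 1.12 (0.60 to 1.65), Zbtb16 by 1.09 (0.24 to 1.94) and Tsc22d3 by 0.46 (0.01 to 0.91). Against week 12, Zbtb16 differed by 1.94 (1.06 to 2.82), Hsph1 by 1.59 (0.86 to 2.32) and Hspb1 by 1.35 (0.81 to 1.90), with limma adjusted p-values of 0.161, 0.161 and 0.137. Without 10 cGy Si replicate 1 of week 1, 1 gene was called between weeks 1 and 4.

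**Figure D5:**
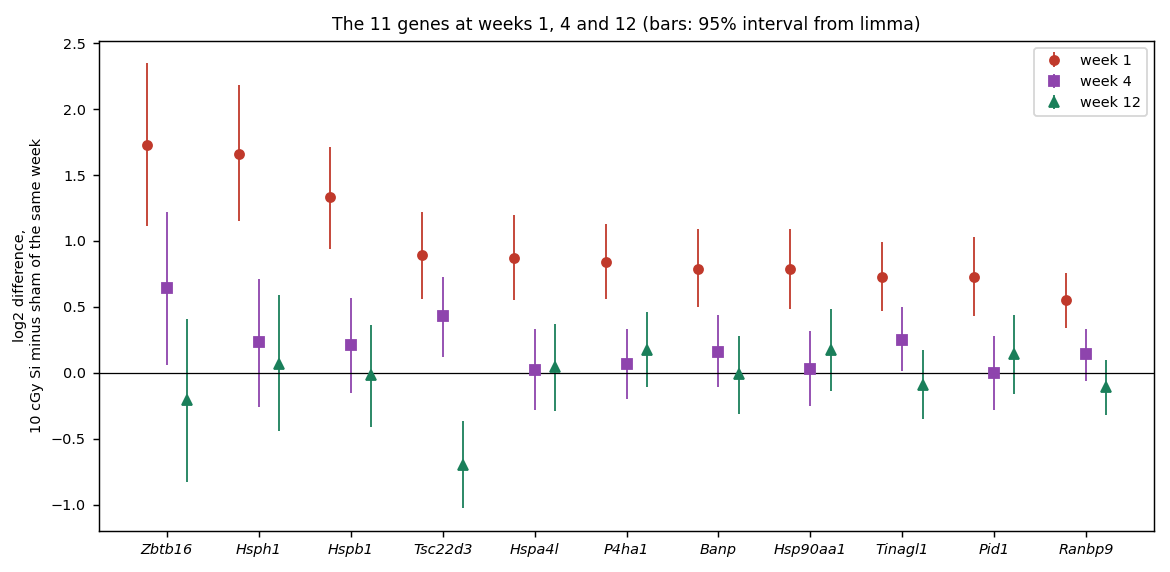
Log2 difference of 10 cGy Si minus sham of the same week for the 11 genes at weeks 1, 4 and 12. Points are limma estimates and bars are 95% intervals of the fit to all arrays of the study. The bars use the spread of a gene within all groups, not within the arrays of 1 week alone. Each group mean rests on 3 arrays, with 4 sham arrays at week 4. Week 1 values run from 0.55 to 1.73, and Tsc22d3 is at -0.70 at week 12.

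Whether the genes followed dose or radiation type was asked of the other irradiations of week 1. The 2 silicon doses were set against each other directly, without sham arrays, but with the same 10 cGy Si arrays as above. At 10 cGy, 6 genes were higher than at 30 cGy and 1 was lower, 0.0455% and 0.00759% of those tested. Hsph1 was at 8.04, 9.18 and 8.62 in 10 cGy Si glands, against 7.07, 7.29 and 7.06 in 30 cGy Si glands (1.47 ± 0.252, SE, n = 3 each, limma adjusted p = 0.0169). Hspb1 was at 10.04, 11.19 and 10.90 against 9.40, 9.67 and 9.66 in 30 cGy Si glands (1.13 ± 0.188, limma adjusted p = 0.0169). For both chaperones the 10 cGy Si arrays lay above the 30 cGy Si arrays, without overlap.

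Banp differed by 0.79 ± 0.144, P4ha1 by 0.71 ± 0.139 and Herpud1 by 0.59 ± 0.118 between 10 and 30 cGy Si (limma adjusted p = 0.0313, 0.0457 and 0.0457). Aff1, a scaffold of transcription elongation complexes that was named after its values were seen, differed by 0.45 ± 0.0864 (limma adjusted p = 0.0388). The gene that was lower, Arhgap18, was at 7.74, 7.32 and 7.44 in 10 cGy Si glands, against 8.27, 8.37 and 8.21 in 30 cGy Si glands (-0.78 ± 0.146, limma adjusted p = 0.0347). Its sham levels were 7.95, 7.97 and 7.74. These 7 calls were fragile: 0 genes were called without 10 cGy Si replicate 2 or 3 or without 30 cGy Si replicate 1 or 3, 3 without 30 cGy Si replicate 2 and 13 without 10 cGy Si replicate 1. The median differences of the lymphocyte lists between these doses were 1.78 for B cell and 1.58 for T and NK cell genes, with 0 members called in either. With the tissue covariates 2 of the 7 genes were called.

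Against 100 cGy gamma, 0 genes were called (0% of 13174), and the unadjusted limma p was below 0.05 for 518 (3.93%). Zbtb16 was at 9.59, 9.81 and 9.94 in 10 cGy Si glands, against 9.67, 9.26 and 9.54 in gamma-irradiated glands, a difference of 0.29 with a 95% interval of -0.33 to 0.91. Tinagl1 differed by 0.12 (-0.14 to 0.38) and Pid1 by 0.10 (-0.20 to 0.40). Hsph1 was at 7.41, 7.25 and 7.28 in gamma-irradiated glands, below every 10 cGy Si array (1.30, interval 0.79 to 1.82, limma adjusted p = 0.11), and Hspb1 at 9.69, 9.94 and 9.82, also below (0.89, interval 0.51 to 1.28, limma adjusted p = 0.184). These genes were chosen on the same 10 cGy Si arrays, which favours large differences, so the differences are given as values. A p that misses the threshold does not show that these irradiations act alike. Without 10 cGy Si replicate 1, 4 genes were called, and without gamma replicate 1 or 3, 1 gene. The tissue mix also differed, with median differences of 1.04 for B cell, 0.94 for T and NK cell and -1.61 for skeletal muscle genes. With the tissue covariates 2 genes were called.

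Set against the same 3 sham arrays, none of the 11 genes was called after either other irradiation, in each of which 0.0228% of all genes tested were. Zbtb16 differed from sham by 1.73 after 10 cGy Si, 0.52 after 30 cGy Si and 1.44 after gamma, and Tinagl1 by 0.73, 0.32 and 0.61. Pid1 differed by 0.73, 0.58 and 0.63 in that order. Hsph1 differed by 1.66, 0.19 and 0.36, and Hspb1 by 1.33, 0.19 and 0.44. Cdkn1a differed by 1.09, 1.15 and 0.99, and Eda2r by 0.27, 0.39 and 0.84. The medians of the cytosolic chaperone list were 0.29, 0.12 and 0.15, and those of the glucocorticoid-induced list 0.41, 0.20 and 0.21. These comparisons share their sham arrays, so a high or low sham array moves all of them together.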

How the data were processed

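Total RNA of mammary tissue was labelled from amplified cDNA and hybridised to 37 Affymetrix arrays, 1 per sample, per the labels' protocols. The deposited values are log2 expression levels that the authors made with RMA and the oligo package (submitters' processing notes; versions not stated there). Array medians lay between 5.04 and 5.25, and no further normalisation was applied. Depth does not apply to arrays, and their number limits the precision.

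The platform annotation gave gene names. Of 35556 probe sets, 21218 had 1 gene symbol, 1881 had several and 12457 were not listed, and only those with 1 symbol were used. For the 1386 of 18820 genes with more than 1 probe set, the brightest on average was taken. Genes were tested when its mean lay above the 30th percentile (log2 4.04), which kept 13174.

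All 37 arrays entered a limma 3.58.1 model in R 4.3.3 with 12 group means (lmFit, then eBayes, 25 residual and 3.4 prior degrees of freedom). All 9 contrasts were two-sided with Benjamini-Hochberg adjustment over all genes. Every adjusted p comes from limma. Intervals are 95% intervals of the same fit. Deviations from the group mean correlated at -0.198, 0.652 and 0.434 between 10 cGy Si and sham replicates numbered 1, 2 and 3. Replicate 1 did not share its deviation, so the samples were not treated as paired.

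The samples, gene lists and tests were chosen with earlier results of these data known. Named were up to 15 called genes a direction, or 5 by smallest p where fewer were called, called list members with up to 4 further members a list, 5 fixed p53 targets and up to 5 called genes a direction in the other contrasts. Of 913 entries in 42 lists, 785 were tested. Alternatives were other filters, probe set rules, normalisations, variance settings, array weights, a replicate block, smaller fits, tissue covariates and left-out arrays.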

Additional observations from a re-analysis of the deposited data

Results flagged for a closer look

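The effect of 10 cGy Si on Tsc22d3 differed between weeks by 1.59 on the log2 scale (week 1 minus week 12), with a difference of 0.89 at week 1 and -0.70 at week 12, and this interaction passed the test (limma adjusted p = 0.00157).

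In the sham group of week 4, replicate 3 had an Hspa4l level of 6.61, set apart from 6.47, 6.47 and 6.44 in the other arrays. The gap was 0.831 of the range, just past Dixon's critical value, and chance sets apart about 1 in 20 groups of this size. The 11 called genes and Cdkn1a were each examined in this group, and Hspa4l was the only one set apart. The week 1 comparison does not use this array other than for the spread.

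A probe set without a listed gene (10479973) was higher in 10 cGy Si glands of week 1, at 7.44, 7.29 and 7.53, against 6.66, 6.55 and 6.06 in sham glands. When all probe sets above the same level were fitted together, the difference was 1.00 ± 0.184 (SE, n = 3 each, limma adjusted p = 0.0208), and it was the 1 called probe set among 7020 that the annotation did not list.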

How the results depend on the processing

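The count of 11 genes for 10 cGy Si against sham at week 1 was 10 to 14 with other filters, probe set rules, normalisation or variance settings, 13 with tissue covariates and 9 without the 2 arrays least like the rest. With all probe sets in 1 fit, an alternative added after seeing the data, 10 of the probe sets used here were called. It was 88 with array weights, 0 with the 6 arrays alone, 1 with the arrays of week 1, and 1 to 20 with 1 array left out. With the replicate number as a block it was 12, of which 10 were among the 11, and for 10 against 30 cGy Si the block gave 3, of which 2 were among the 7. That contrast gave 4 with the mean of probe sets, 3 with centred arrays, 146 with array weights, 0 in both smaller fits, 2 with covariates and 0 to 13 with 1 array left out. Against gamma the count of 0 became 1 with quantile normalisation, centring or the 2 arrays left out, 3 with weights, 2 with covariates and 0 to 4 with 1 array left out. Week 1 minus week 12 gave 2 with the arrays of these weeks, with covariates or without the 2 arrays, and 1 to 10 with 1 array left out, and week 1 minus week 4 gave 0 to 1. Weeks 4 and 12 gave 0 under every alternative run. No direction of a called gene was reversed. The cause of these shifts was not tested. Smaller fits differ from the main fit in the number of arrays and also in the groups whose spread is used. For 10 cGy Si against sham at week 1, the unadjusted limma p was below 0.05 for 712 genes in the main fit. It was below 0.05 for 731 with the 6 arrays alone and for 1000 with the arrays of week 1.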

Other observations

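Several single genes of vessels, immune cells and signalling differed at week 1 without a call. Ccl11, which attracts eosinophils, was at 8.98, 9.19 and 8.98 in 10 cGy Si glands, against 8.65, 8.0 and 8.38 in sham glands (difference 0.71 ± 0.183, SE, n = 3 each, limma adjusted p = 0.238). Adm, the vessel-relaxing peptide adrenomedullin, was at 6.55, 6.80 and 6.08 in 10 cGy Si glands, against 5.81, 5.38 and 5.82 in sham glands (0.81 ± 0.259, limma adjusted p = 0.443). Ace, the angiotensin-converting enzyme of endothelial cells, was at 8.67, 8.71 and 8.86 in 10 cGy Si glands, against 8.37, 8.33 and 8.06 in sham glands (0.49 ± 0.126, limma adjusted p = 0.238), and Sox17, an endothelial transcription factor, differed by 0.58 ± 0.153 (limma adjusted p = 0.238). In Ccl11, Adm, Ace and Sox17 the irradiated arrays all lay above the sham arrays. The 18 endothelial genes had 0 calls and a median of 0.05, and 1 of them was called without 10 cGy Si replicate 1. Prom1, a surface protein of luminal cells, was at 5.47, 5.52 and 5.01 in 10 cGy Si glands, against 6.57, 6.77 and 5.65 in sham glands (-1.0 ± 0.395, limma adjusted p = 0.763).

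Interferon-stimulated genes had 0 called of 23 tested, with medians of 0.03 at week 1, 0.42 at week 4 and 0.30 at week 12. The TGF-beta list had a median of -0.04 over 18 members at week 1 and the Notch list -0.03 over 19, with 0 called in either. Sterol synthesis genes had a median of -0.08 over 18 members, hypoxia and glycolysis genes 0.11 over 17, and milk protein and secretion genes -0.24 over 11, again with 0 called.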
